A study of Mus musculus with 30 samples.

Results

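Ighd4-1, also called DQ52, is the D segment of the mouse immunoglobulin heavy-chain (Igh) locus that lies closest to the JH segments. It was followed here through 61969 junctions out of the 2074993 that 30 libraries held, which is 2.99% of all junctions. A junction was counted for Ighd4-1 when its prey end lay on chromosome 12 within 100 bp of the segment, in either orientation, and no measured level entered that choice. Bone marrow libraries gave 34912 such junctions of 1139295, and v-Abl libraries gave 27057 of 935698.

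The assay was HTGTS-V(D)J-seq on genomic DNA. A primer at JH4 reads outward from the bait into whatever segment has been joined to it, so that 1 deposited line is 1 read with 1 junction. The bone marrow genotypes CBE12mut (CBE1&2-/-), CBE1mut (CBE1-/-), CBE1inv (CBE1inv/inv), CBE2mut (CBE2-/-) and CBE2inv (CBE2inv/inv) were set against WT, all as B220+ IgM- CD43+ pro-B cells sorted from 129SV mice. Their alleles change IGCR1, the control region between the V and D segments, at its pair of CTCF-binding elements (CBEs). The v-Abl groups were WT_DoxIAA, WT_untreat, 3CBEdel_DoxIAA and 3CBEdel_untreat. All v-Abl cells were C57BL/6, RAG1-/-, Emu-Bcl2, carried a WAPL degron and a single Igh allele, received RAG1/2 by retrovirus and were held in 3 µM STI-571 for 4 days. DoxIAA cells spent the last 3 of those days in 150 µM auxin (IAA) with 2 µg/mL doxycycline, and 3CBEdel cells carry a deletion labelled 3IghCBEs, the CBE group at the 3′ end of Igh. Each of the 10 groups had 3 libraries. The v-Abl cells are transformed and receive their recombinase from outside, and the labels do not say how many clones stand behind each genotype, so that genotype and clone cannot be told apart. They also do not say whether replicates were separate cultures or, in bone marrow, separate mice. The p-values therefore measure the spread between these libraries, which may be technical.

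Heavy-chain genes are assembled in order: a D first joins a JH, and a V then joins the resulting DJH. RAG cuts at a recombination signal beside each segment, made of a heptamer, a spacer and a nonamer, and a D carries a signal on both sides. A DJH join uses the 3′ signal of the D, and a later V join uses the 5′ signal. Joining that deletes the DNA between D and JH is by far the usual outcome, while inversion leaves the D flipped. Cohesin-driven loop extrusion brings segments to the recombination centre at Ighd4-1 and JH, WAPL unloads cohesin, and CTCF bound at CBEs can halt the process.

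In mm9, Ighd4-1 is the single exon of an immunoglobulin D gene at chr12:114668739-114668749 on the minus strand, which GENCODE vM1 lists as Gm16877. It is 11 bases long. It lies 695 bp from JH1 and 1961 bp from JH4, the bait segment, while the next D, Ighd3-2, is 17676 bp farther and Ighd1-1, at the other end of the main D group, is 51632 bp away. The bone marrow target, which joins a 129SV Igh sequence to mm9, holds a segment at 100% identity to it at 114673089-114673099 of its chromosome 12, with the next D 14513 bp farther. The segment is given here with both signals from mm9, beside the neighbouring D and Ighd1-1, because every join described here starts from these ends. Capitals mark the D, and each line reads 5′ to 3′ on the coding strand.

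Ighd4-1: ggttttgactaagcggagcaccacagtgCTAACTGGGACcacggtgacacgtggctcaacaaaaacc
Ighd3-2: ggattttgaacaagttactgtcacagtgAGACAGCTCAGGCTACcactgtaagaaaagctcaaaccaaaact
Ighd1-1: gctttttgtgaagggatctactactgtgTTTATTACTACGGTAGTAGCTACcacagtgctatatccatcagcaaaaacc
Start of JH4: attactatgctatggactac

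The 3′ nonamer of Ighd4-1 equals the consensus ACAAAAACC at 9 of 9 bases, and its 3′ heptamer equals the consensus CACAGTG at 6 of 7. For Ighd3-2 these matches are 7 of 9 and 5 of 7, and for Ighd1-1 they are 8 of 9 and 7 of 7. These are counts of letters and were not set against joining levels.

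Depth was 11105 to 98682 junctions per bone marrow library and 13180 to 175957 per v-Abl library. The smallest set of Ighd4-1 joins was 375, in CBE2mut replicate 2. Read sequences recurred within libraries, on 9.26% to 43.9% of lines in bone marrow and 18.2% to 52.4% in v-Abl cells. Run labels carried by the deposited files place WT, CBE12mut, CBE1mut and CBE1inv in 1 sequencing run and CBE2mut and CBE2inv in another, so that the CBE2 genotypes and their run cannot be told apart against WT. One v-Abl run held libraries of all 4 groups.

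In bone marrow, mutation of both CBEs lowered Ighd4-1 among all junctions and raised it among D joins, although under median-of-ratios scaling the change among all junctions had the opposite sign. CBE12mut libraries had 1864, 2058 and 2627 Ighd4-1 joins per 100000 junctions, against 3570, 3336 and 3805 in WT. All CBE12mut libraries lay below all WT libraries. The log2 change was -0.71 ± 0.12 (SE), with an adjusted p of 1.35e-06 in limma voom. In that comparison 90.3% of the 165 tested segments passed the test, and the median over all 165 was a log2 change of -2.01. Median-of-ratios scaling, which centres on the typical segment, gave Ighd4-1 a log2 change of 1.24. That opposite change also passed (adjusted p = 1.17e-04, limma voom).

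What JH4 was joined to also differed. All D joins together made up 12971 ± 1700 per 100000 junctions in CBE12mut and 63495 ± 3097 in WT (SD, n = 3 each), a ratio of 0.204. Ighd4-1 joins had a ratio of 0.611 and Ighd1-1 joins a ratio of 0.0222. V joins were 84.7% to 87.8% of V plus D joins in CBE12mut, against 30.5% to 36.9% in WT. A D join that is used up by a V join leaves the D count, so that fewer DJH joins made and more DJH joins converted cannot be told apart in these libraries.

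Among D joins, Ighd4-1 took 15.5%, 17.2% and 17.6% in CBE12mut, against 5.83%, 5.36% and 5.68% in WT. The groups were far apart, and the mean of 16.8% ± 1.13 was 2.98 times the WT mean of 5.62% ± 0.236 (SD, n = 3 each). Scaled to D joins, the log2 change was 1.58 ± 0.07 (SE), with an adjusted p of 1.48e-15 in limma voom, where 13.3% of segments passed. The exact permutation test on the shares gave p = 0.1, the smallest that 3 against 3 libraries allow, and 0.117 after adjustment over 7 comparisons. Ighd4-1 ranked first of 26 D segments in CBE12mut and the tenth in WT. Its CBE12mut range overlapped that of the segment ranked next, a D at position 114714725 of the target that is closest in sequence to Ighd2-8, which took 15.2% to 16.8%.

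Of 24 other D segments tested per D join, 12 were higher and 3 lower in CBE12mut, beside 11.5% and 1.82% of all segments, with a median log2 change of 1.13 over these 24 and 0.29 over all 165. These counts are of the same libraries and hold no test of Ighd4-1 against its neighbours. The next D, closest to Ighd3-2, took 2.47% of D joins in CBE12mut and 2.10% in WT, a log2 change of 0.25 ± 0.20 that did not pass (adjusted p = 0.524, limma voom). Ighd1-1 took 2.38% ± 0.202 in CBE12mut and 22.1% ± 1.11 in WT.

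The ratio of Ighd4-1 to Ighd1-1 brings both ends of the D group together, and it does not depend on library scaling. CBE12mut libraries had ratios of 6.74, 7.69 and 6.73, against 0.280, 0.234 and 0.252 in WT. Ighd4-1 outnumbered Ighd1-1 in every CBE12mut library and was outnumbered in every WT library. On the log2 scale the means were 2.81 ± 0.11 and -1.97 ± 0.13 (SD, n = 3 each), a difference of 4.79 with p = 0.1 by the exact permutation test, the smallest allowed.

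Mutation of CBE1 alone moved Ighd4-1 in the same directions. CBE1mut libraries had 2477, 2324 and 2396 Ighd4-1 joins per 100000, each below each WT library. The log2 change was -0.58 ± 0.12 (SE), with an adjusted p of 9.99e-05 in limma voom, where 62.4% of segments passed and the median of all segments was -1.02. Under median-of-ratios scaling its sign turned to 0.43, without passing. Among D joins the shares were 8.945%, 8.996% and 8.979% in CBE1mut, above the WT shares of 5.36% to 5.83%. That was a log2 change of 0.66 ± 0.07 with an adjusted p of 1.03e-07 in limma voom, beside 8.48% of segments passing and a median of 0.24, and under median-of-ratios scaling it no longer passed. Of the 24 other D segments, 3 were higher and 3 lower, against 6.67% and 1.82% of all segments. Ighd1-1 did not pass per D join, at 21.7% ± 0.480 in CBE1mut and 22.1% ± 1.11 in WT (log2 change -0.02 ± 0.04, adjusted p = 0.859, limma voom). The log2 ratio of Ighd4-1 to Ighd1-1 was -1.28 ± 0.03 in CBE1mut and -1.97 ± 0.13 in WT.

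With CBE1 inverted, the level per junction overlapped WT and the share of D joins was higher. CBE1inv libraries had 3311, 3641 and 3232 Ighd4-1 joins per 100000, against 3336 to 3805 in WT (log2 change -0.08 ± 0.11, adjusted p = 0.771, limma voom, with 9.70% of segments passing). Among D joins the shares were 6.36%, 7.18% and 6.52%, all above WT, for a log2 change of 0.24 ± 0.06 (adjusted p = 0.00528, limma voom, with 7.27% of segments passing). Of the 24 other D segments, 4 were higher and 2 lower, against 4.85% and 2.42% of all segments. The labels do not state that same-numbered libraries are pairs. With replicate number as a block, 2 were higher and 2 lower, and Ighd4-1 passed at 0.24 with an adjusted p of 0.0253 (limma voom). That call was lost without CBE1inv replicate 2, at 0.19 with an adjusted p of 0.0609, with limma trend, at 0.25 with an adjusted p of 0.456, and under median-of-ratios scaling, at 0.11 with an adjusted p of 0.859. Set directly against CBE1mut, CBE1inv was higher per junction by 0.50 ± 0.12 and lower per D join by -0.42 ± 0.07 (adjusted p of 6.86e-04 and 1.04e-04, limma voom), where 44.8% and 5.45% of segments passed. Of the 24 other D segments, 1 was higher and 2 lower per D join in CBE1inv than in CBE1mut, against 0.606% and 4.85% of all segments. Neither call of Ighd4-1 held under median-of-ratios scaling, at -0.32 for both.

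The CBE2 genotypes differed from WT in the share of D joins. CBE2mut libraries had 3509, 3377 and 4084 Ighd4-1 joins per 100000 and CBE2inv libraries had 4205, 3594 and 4843, and both ranges overlapped WT. The log2 changes per junction were 0.05 ± 0.14 for CBE2mut and 0.18 ± 0.13 for CBE2inv, with adjusted p of 0.815 and 0.499 in limma voom, where 12.1% and 4.85% of segments passed. Without CBE2mut replicate 3 the first became -0.051. Among D joins, CBE2mut libraries had 8.33%, 6.42% and 7.65% and CBE2inv libraries 7.54%, 8.70% and 9.36%, all above the highest WT library. The log2 changes per D join were 0.44 ± 0.10 and 0.56 ± 0.10 (adjusted p of 0.00202 and 1.76e-04, limma voom), beside 8.48% and 6.67% of segments passing, and neither passed under median-of-ratios scaling. Of the 24 other D segments, 2 were higher and 1 lower in CBE2mut, against 7.27% and 1.21% of all segments, and 3 were higher and 1 lower in CBE2inv, against 6.06% and 0.606%.

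The next D was higher in both CBE2 genotypes. The D closest to Ighd3-2 took 4.15% of D joins in CBE2mut and 5.32% in CBE2inv, against 2.10% in WT, with log2 changes of 0.92 ± 0.15 and 1.29 ± 0.14 (adjusted p of 4.52e-05 and 1.44e-07, limma voom). Under median-of-ratios scaling 0 other D segments were called higher in CBE2inv, so its call of this D was lost. In CBE2mut 1 was called higher under that scaling. Ighd1-1 took 12.8% ± 0.593 in CBE2mut and 10.1% ± 0.904 in CBE2inv, against 22.1% ± 1.11 in WT. The ratio of Ighd4-1 to Ighd1-1 was 0.671, 0.475 and 0.609 in CBE2mut and 0.705, 0.817 and 1.03 in CBE2inv, all above WT. CBE2inv was not distinguished from CBE2mut per junction (log2 change 0.13 ± 0.15, adjusted p = 0.667, limma voom, with 3.64% of segments passing) or per D join (0.12 ± 0.12, adjusted p = 0.618, limma voom). Per D join 0 of 165 segments passed in limma voom, with 24 at an unadjusted p under 0.05, and 6 passed in limma trend.

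Across the 6 genotypes together, the share of D joins and the log2 ratio to Ighd1-1 each varied more between genotype means than in any of 100000 permutations of the libraries (p = 1e-05, the smallest they can give).

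**Figure D1:**
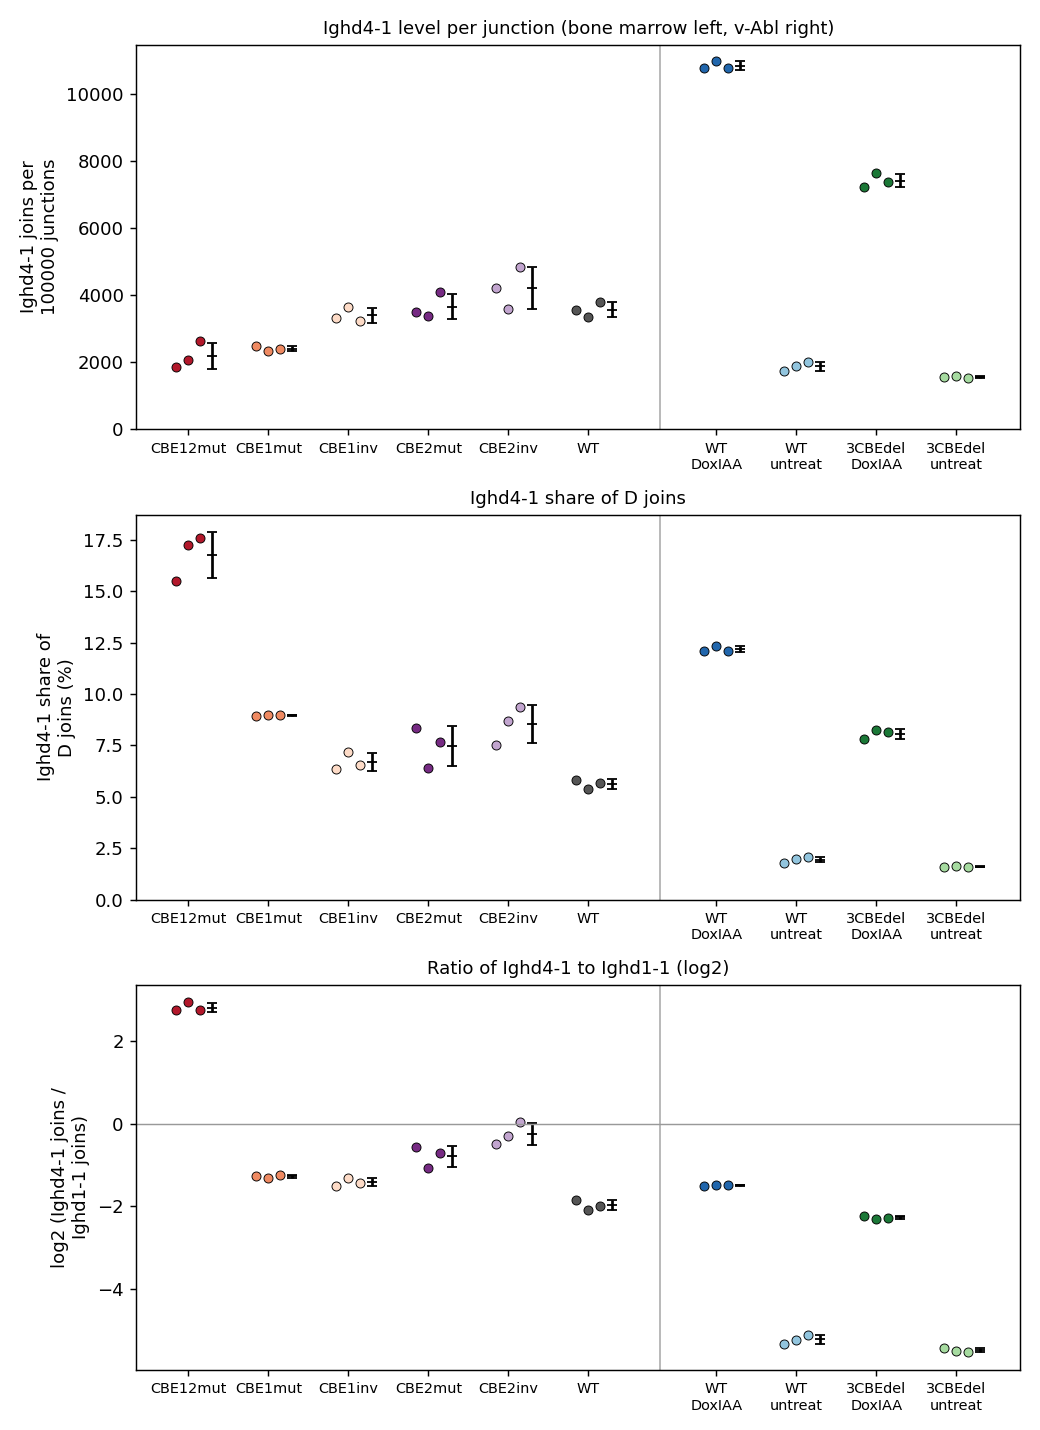
Ighd4-1 in each of the 30 libraries, as joins per 100000 junctions (top), percent of D joins (middle) and log2 ratio to Ighd1-1 joins (bottom); dots are libraries, and the bar beside them is the mean with SD of 3. CBE12mut libraries had fewer joins per junction than WT (1864 to 2627 against 3336 to 3805), a direction that turns under median-of-ratios scaling, and a higher share of D joins (15.5% to 17.6% against 5.36% to 5.83%), and DoxIAA libraries stood above untreated ones in all 3 measures.

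In v-Abl cells, treatment raised Ighd4-1 both per junction and per D join. WT_DoxIAA libraries had 10752, 10986 and 10772 Ighd4-1 joins per 100000 junctions, against 1747, 1896 and 2011 in WT_untreat. The libraries within each group lay close together and the groups were far apart, with a ratio of means of 5.75. The log2 change was 2.52 ± 0.07 (SE), with an adjusted p of 9.8e-15 in limma voom. Most segments passed, 82.9% of the 82 tested, with a median log2 change of 4.96 over all of them. Among D joins the shares were 12.1%, 12.3% and 12.1% in WT_DoxIAA, against 1.80%, 1.96% and 2.08% in WT_untreat, 6.25 times as high by the means.

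The 3CBEdel line responded in the same direction. 3CBEdel_DoxIAA libraries had 7225, 7628 and 7382 Ighd4-1 joins per 100000, against 1559, 1604 and 1526 in 3CBEdel_untreat, a ratio of means of 4.74. The log2 change was 2.24 ± 0.09 (SE), with an adjusted p of 2.64e-12 in limma voom, where 76.8% of segments passed and the median of all segments was 3.77. Among D joins the shares were 7.80%, 8.27% and 8.13% in 3CBEdel_DoxIAA, against 1.60%, 1.65% and 1.57% in 3CBEdel_untreat.

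Most junctions were D joins with and without treatment. D joins made up 89004 per 100000 junctions in WT_DoxIAA and 96762 in WT_untreat. Ighd1-1 took 34.3% of D joins in WT_DoxIAA and 73.2% in WT_untreat, and 39.0% in 3CBEdel_DoxIAA and 72.5% in 3CBEdel_untreat. The log2 ratio of Ighd4-1 to Ighd1-1 was -1.50, -1.49 and -1.49 in WT_DoxIAA, against -5.35, -5.24 and -5.12 in WT_untreat. It was -2.23, -2.31 and -2.28 in 3CBEdel_DoxIAA, against -5.44, -5.51 and -5.53 in 3CBEdel_untreat. With treatment permuted within genotype, the exact permutation test gave p = 0.005 for the share of D joins and for the log2 ratio, the smallest that its 400 permutations can give.

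Per D join, Ighd4-1 had a log2 change of 2.64 ± 0.07 in WT and 2.32 ± 0.09 in 3CBEdel (adjusted p of 5.34e-15 and 1.74e-12, limma voom). Of 12 other D segments tested, 8 were higher and 1 lower in WT_DoxIAA, against 79.3% and 2.44% of all segments, and 7 were higher and 1 lower in 3CBEdel_DoxIAA, against 73.2% and 3.66%. The median log2 change over these 12 was 1.40 in WT and 1.37 in 3CBEdel, and over all 82 segments it was 5.08 and 3.84. The 1 D that was lower was Ighd1-1 in both lines. The neighbour Ighd3-2 had log2 changes of 1.95 ± 0.19 in WT and 1.87 ± 0.24 in 3CBEdel (adjusted p of 8.48e-08 and 4.53e-06, limma voom). Scaled by the median of ratios, the log2 change of Ighd4-1 was 0.40 in WT and 0.53 in 3CBEdel, still past the threshold (adjusted p of 0.0334 and 0.0142, limma voom). That does not place Ighd4-1 above the typical segment, since its changes per D join lay below the medians of 5.08 and 3.84. Under the same scaling 0 of the 12 other D segments, Ighd3-2 included, were called higher in either line. The number called lower was 9 in WT and 5 in 3CBEdel. Within the run that held all 4 groups, the log2 change of Ighd4-1 per D join was 2.59 in WT and 2.30 in 3CBEdel. Ighd4-1 ranked the third of 13 D segments in WT_DoxIAA and the fifth in WT_untreat.

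**Figure D2:**
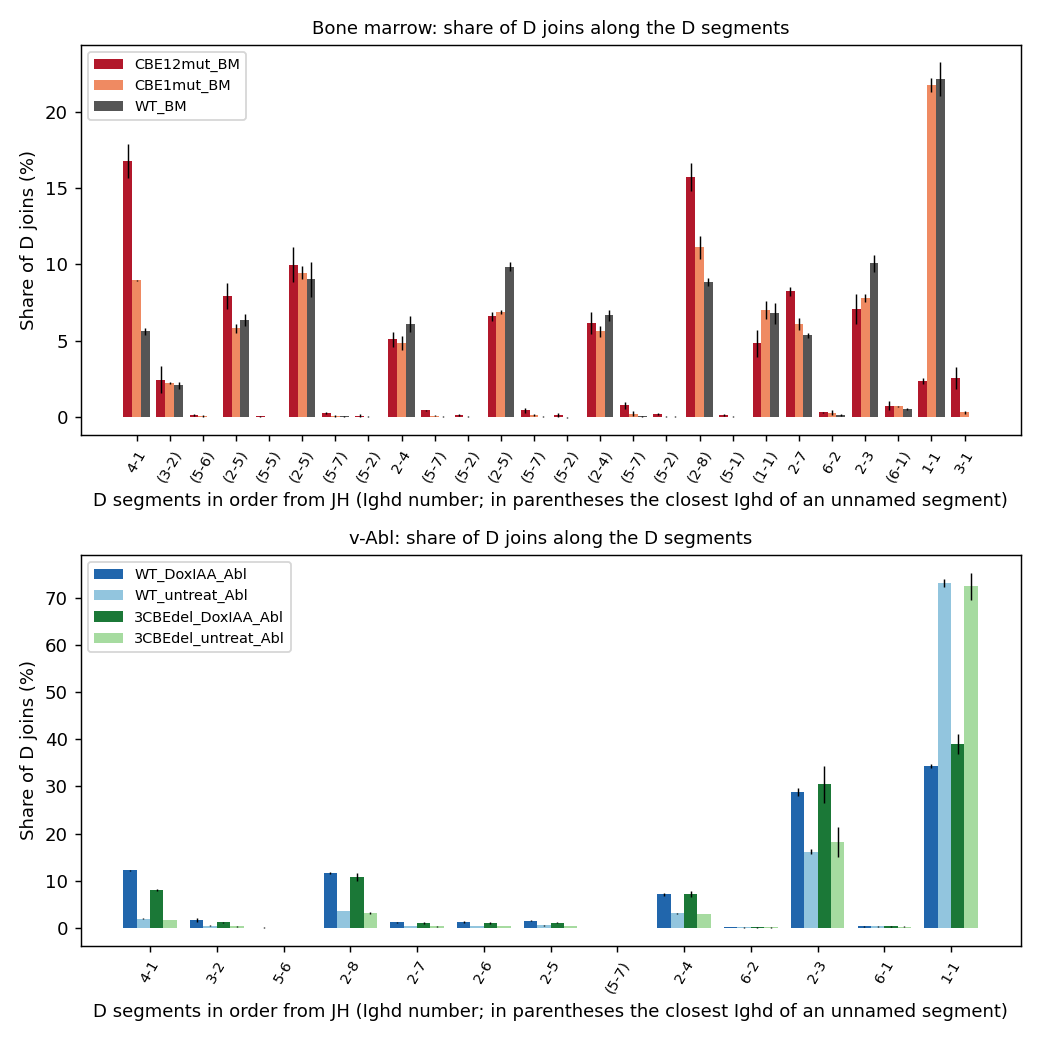
Share of D joins (percent, mean with SD of 3 libraries) for every D segment in order from JH, in CBE12mut, CBE1mut and WT bone marrow (top) and in the 4 v-Abl groups (bottom). Ighd4-1, the leftmost segment, took 16.8% in CBE12mut and 5.62% in WT, and 12.2% in WT_DoxIAA and 1.95% in WT_untreat, while Ighd1-1 took 2.38% in CBE12mut and 22.1% in WT, and 34.3% in WT_DoxIAA and 73.2% in WT_untreat.

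Treated cells with the 3′ CBEs deleted had less Ighd4-1 than treated WT cells. The 3CBEdel_DoxIAA level per junction was below that of WT_DoxIAA in every library, with a log2 change of -0.55 ± 0.08 (adjusted p = 3.89e-04, limma voom). Ighd4-1 was the 1 segment of 82 that passed, 1.22%, and per D join, at -0.60 ± 0.08 (adjusted p = 1.53e-04, limma voom), it was again the 1 that passed. Of the 12 other D segments 0 passed in limma voom, with 3 at an unadjusted p under 0.05, and 1 passed as higher in limma trend. Over all 82 segments the median was -0.50 per junction, and under median-of-ratios scaling Ighd4-1 had -0.16 without passing. Within the run that held all 4 groups, with 2 libraries each, the log2 change per D join was -0.61 with an adjusted p of 0.0299 (limma voom).

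In untreated cells the same comparison did not pass. The 3CBEdel_untreat libraries lay below all WT_untreat libraries, with a log2 change per junction of -0.27 ± 0.08 (adjusted p = 0.0799, limma voom, 2.44% of segments passing) and of -0.31 within the shared run (adjusted p = 0.294, limma voom). It passed with each read sequence counted once, at -0.31 with an adjusted p of 0.016, and without WT_untreat replicate 1, at -0.32 with an adjusted p of 0.0213. The share of D joins differed by -0.340 points in untreated cells, with p = 0.1 by the exact permutation test, the smallest allowed. With genotype permuted within treatment, the exact permutation test gave p = 0.005 for a mean difference of -2.23 points, which averages the untreated difference with one of -4.11 points in treated cells. The treatment effect in 3CBEdel minus that in WT was -0.28 ± 0.11 per junction and -0.32 ± 0.11 per D join, with adjusted p of 0.218 and 0.151 (limma voom), so the treatment effects were not shown to differ. In this test 0 of 82 segments passed in limma voom and in limma trend, with 13 and 11 at an unadjusted p under 0.05, while the unadjusted p of Ighd4-1 was 0.0239 and 0.0118.

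Ordered by mean level per junction over all 10 groups, WT_DoxIAA was highest with 10837, followed by 3CBEdel_DoxIAA with 7412, CBE2inv with 4214, CBE2mut with 3657, WT bone marrow with 3570, CBE1inv with 3395, CBE1mut with 2399, CBE12mut with 2183, WT_untreat with 1885 and 3CBEdel_untreat with 1563. Neighbours from CBE2inv to CBE1inv overlapped in their libraries, as did CBE1mut with CBE12mut and CBE12mut with WT_untreat. Bone marrow and v-Abl cells differ in strain, alignment target and source of RAG, so this order across them is a description.

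Among segments with a mean of at least 20 joins per 100000, the level most like that of Ighd4-1 over the 18 bone marrow libraries was that of its neighbour, the D closest to Ighd3-2, with a Pearson r of 0.95 on log2(joins per 100000 + 1) among 144 segments. The D at position 114690286, closest to Ighd2-5, and Ighd2-4 followed with 0.91 each. Over the 12 v-Abl libraries they were Ighd2-8 with 0.99, Ighv1-58 with 0.98 and a V at position 117028804 with 0.98, among 78 segments. The levels are parts of all junctions, so the split of junctions between V and D enters all such values.

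Nearly all Ighd4-1 joins were deletional. In bone marrow 57 of 34912 joins were inversional, 0.163% with an exact 95% interval of 0.124% to 0.211%. Of the 57, 5 lay within the 11 bases of the D, where an inversional join should sit. In v-Abl cells there were 55 of 27057, 0.203% (0.153% to 0.265%), with 39 within the D. Among other D segments the share was 0.193% in bone marrow and 0.0851% in v-Abl cells. These intervals cover counting error only, since reads carry no molecular identifiers. In v-Abl cells 22 of the 39 came from WT_DoxIAA replicate 2. CBE12mut libraries had 0.290%, 0.551% and 0.235% inversional joins (4, 8 and 6 reads), against 0.106%, 0% and 0.175% in WT, which did not overlap (exact permutation p = 0.1, the smallest allowed, and 0.7 after adjustment over 7 comparisons). The count of 0 was among 1934 joins, and taken as 3 counts it allows a share of up to 0.155%. Most of the CBE12mut reads lay outside the D, within which only 5 of all 57 bone marrow reads were found. Inversional joins of the other D segments were also more frequent in these libraries, at 0.676%, 0.516% and 0.569% in CBE12mut, against 0.142%, 0.114% and 0.118% in WT, a difference that was not tested. Over all groups, the test of the share of inversional Ighd4-1 joins did not pass in bone marrow (permutation of the 6 genotypes, p = 0.653) or with treatment (exact permutation test, p = 0.875).

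Bone marrow and v-Abl joins had different junctions. The most frequent junctions of the groups named are given because they hold the D, any inserted bases and the start of JH4. Capitals mark Ighd4-1 bases, including bases that JH4 shares at the junction, and the lower case before them is the 5′ heptamer.

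WT bone marrow and both WT v-Abl groups: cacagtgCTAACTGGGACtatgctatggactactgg
CBE12mut: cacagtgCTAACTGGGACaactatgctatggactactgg
WT v-Abl groups, ranked next: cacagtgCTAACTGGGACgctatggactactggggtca

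The first of these joins the D to a shortened JH4 without inserted bases. Its AC before the lower case also stands in JH4, so which segment gave these bases cannot be told. This junction was 1.01% of deletional Ighd4-1 joins in WT bone marrow, but 14.2% in WT_DoxIAA and 14.8% in WT_untreat. The next v-Abl junction was 10.7% in WT_DoxIAA and 12.1% in WT_untreat. Ighd4-1 joins without inserted bases were 68.7% to 74.6% by the means of v-Abl groups, and 62.6% to 75.2% in single libraries. In bone marrow they were 9.23% to 15.9% in single libraries, and the mean number of inserted bases was 3.37 to 3.82 by group, while it was 0.457 to 0.534 in v-Abl groups. No bone marrow library overlapped any v-Abl library. The tests of that share between genotypes in bone marrow (permutation p = 0.558) and with treatment in v-Abl cells (exact permutation p = 0.365) did not pass.

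The full 3′ coding end of the D, which RAG exposes by cutting at the 3′ signal, was counted with bases shared with JH4 taken as D bases. It was kept in 48.8% to 50.6% of joins by v-Abl group means, and the test of treatment did not pass (exact permutation p = 0.68). In bone marrow it was kept in 31.6%, 27.1% and 28.8% of CBE12mut joins, against 36.1%, 36.5% and 37.3% in WT. The difference of -7.47 points had p = 0.1 in the exact permutation test, the smallest allowed, and the variance between all 6 genotypes had p = 0.0144 by permutation.

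Joins that had lost the whole segment were more frequent in CBE12mut. All 11 bases of Ighd4-1 were missing from 27.1%, 29.2% and 26.7% of CBE12mut joins, against 11.5%, 10.7% and 12.6% in WT. Every CBE12mut library was above every library of the other genotypes. CBE12mut averaged 27.7% ± 1.33, CBE1mut 16.7% ± 2.41, CBE1inv 14.8% ± 0.760, CBE2mut 13.0% ± 4.19, CBE2inv 12.8% ± 1.06 and WT 11.6% ± 0.990 (SD, n = 3 each). This measure was added after the junction profile had been seen. The exact permutation test of CBE12mut against WT gave p = 0.1, the smallest allowed, and the variance between the 6 genotypes gave p = 0.00108 by permutation. In v-Abl groups the means were 1.08% to 1.64%.

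Most of these joins ended inside or beyond the 5′ heptamer of Ighd4-1. The 5′ heptamer had lost at least 1 base in 26.3% ± 0.938 of CBE12mut joins and in 10.9% ± 1.03 of WT joins, and all 7 of its bases were gone in 10.4% and 2.86%. A D with a cut 5′ heptamer lacks the intact signal that a V join uses. Whether that bears on how often joins with a cut 5′ heptamer were seen was not tested. In CBE12mut and in WT the most frequent such junctions, with no base of the D left, were these.

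CBE12mut, 5′ signal side lost by 10 bases: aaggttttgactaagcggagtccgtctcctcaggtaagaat
WT, 5′ signal side lost by 6 bases: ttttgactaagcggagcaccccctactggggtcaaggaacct

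Each came from 1 library, with 37 and 22 reads, and the 1400 heptamer-cut joins of CBE12mut were spread over the libraries as 25.4% to 27.3%. Ighd1-1 joins without any D base were 8.04% ± 4.85 in CBE12mut, over 768 deletional joins, and 2.41% ± 0.040 in WT.

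**Figure D3:**
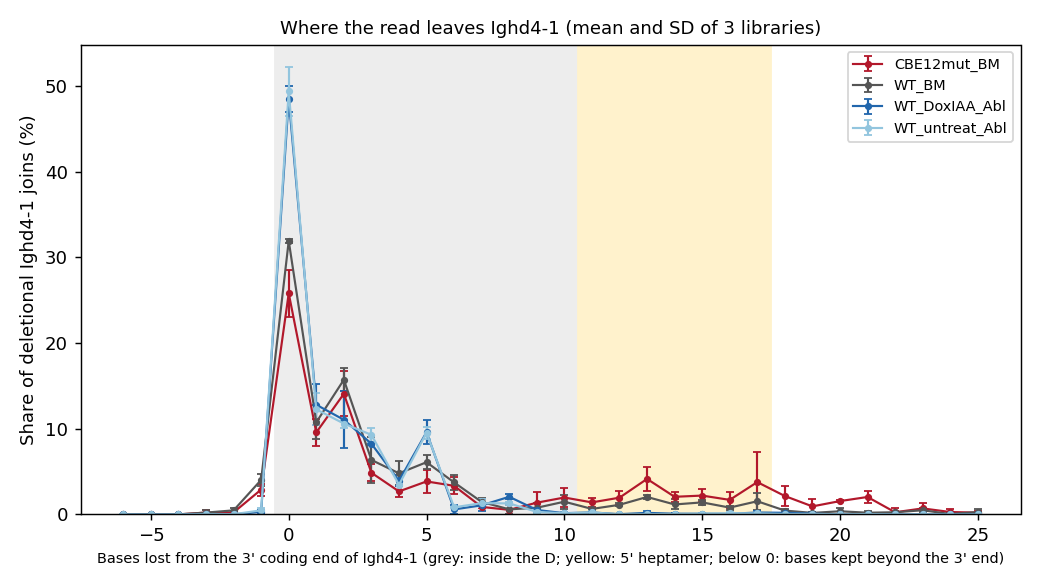
Share of deletional Ighd4-1 joins (percent, mean with SD of 3 libraries) by the number of bases lost from the 3′ coding end; 0 is the full end, grey marks the D and yellow the 5′ heptamer. Bases shared with JH4 count as D bases. The full end was the most frequent position in all 4 groups, and joins past the last D base made up 27.7% in CBE12mut and 11.6% in WT, and 1.23% in WT_DoxIAA and 1.08% in WT_untreat.

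Ighd4-1 could also be read inside completed V joins, between the V and JH4. A D was read where a run of at least 8 bases matched 1 D segment, which an 11-base D can pass only when little trimmed. V joins whose run matched several D segments were left out, which makes the share larger than over all V joins with a D run. The net direction was not tested, so the share cannot be set against the share of D joins. Trimming of Ighd4-1 differed between groups, and the D was read as 1 segment in 79225 of 202951 V joins in CBE12mut and in 36503 of 74457 in WT. The part of both in the shares was not tested. Among V joins with 1 readable D, Ighd4-1 made up 6.32%, 5.15% and 5.91% in CBE12mut, against 3.80%, 3.14% and 2.65% in WT. The groups did not overlap, and the difference of 2.60 points had p = 0.1 in the exact permutation test, the smallest allowed, and 0.35 after adjustment over 7 comparisons. With runs of at least 9 bases it was 1.83. CBE1mut averaged 3.52% ± 0.436, CBE1inv 3.57% ± 0.640, CBE2mut 4.68% ± 0.468 and CBE2inv 4.47% ± 1.42, against 3.20% ± 0.574 in WT (SD, n = 3 each). The variance between the 6 genotypes had p = 0.0166 by permutation. Over all V joins with any D run, including those that match several D segments, Ighd4-1 was 3.51% ± 0.306 in CBE12mut and 2.26% ± 0.378 in WT (SD, n = 3 each).

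Ighv5-2, the most proximal functional V segment, took most V joins in CBE12mut, and its D content was set beside that of the other V segments, a split made after the values had been seen. In CBE12mut, Ighd4-1 was 5.12%, 3.81% and 4.30% of readable D in Ighv5-2 joins and 10.5%, 9.11% and 10.6% in joins of other V segments. In CBE1mut it was 2.51%, 2.65% and 2.25% in Ighv5-2 joins and 6.26%, 5.23% and 4.59% in others. In both genotypes other V segments were higher in every library. They were also higher in every CBE2inv library, where Ighd4-1 was 2.72%, 3.28% and 5.28% in Ighv5-2 joins and 3.36%, 4.22% and 6.15% in others. In CBE1inv they were higher in replicates 1 and 3 and lower in replicate 2. In CBE2mut they were higher in replicate 2 and lower in replicates 1 and 3, with 6.87%, 3.84% and 5.88% in Ighv5-2 joins and 4.53%, 4.24% and 4.64% in others. In WT the values were 4.57%, 2.63% and 5.10% in Ighv5-2 joins and 3.71%, 3.20% and 2.35% in others, with no common direction. None of these differences was tested.

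Treatment in v-Abl cells gave Ighd4-1 no common direction inside V joins. WT_DoxIAA libraries had 0 of 1208, 2 of 1763 and 28 of 1597 readable D, against 29 of 1649, 21 of 1765 and 26 of 2373 in WT_untreat. Taken as 3 counts, the count of 0 allows a share of up to 0.248%, and the 28 all came from replicate 3. The means were 0.622% ± 0.981 and 1.35% ± 0.359, which overlapped (exact permutation p = 0.3). 3CBEdel_DoxIAA libraries had 3 of 837, 6 of 801 and 7 of 635, against 5 of 1628, 4 of 1542 and 2 of 1084 in 3CBEdel_untreat, with means of 0.737% ± 0.372 and 0.250% ± 0.062 and p = 0.1, the smallest the exact permutation test allows. With treatment permuted within genotype the exact test gave p = 0.715. These counts are small, and they cannot be set against the shares of D joins.

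**Figure D4:**
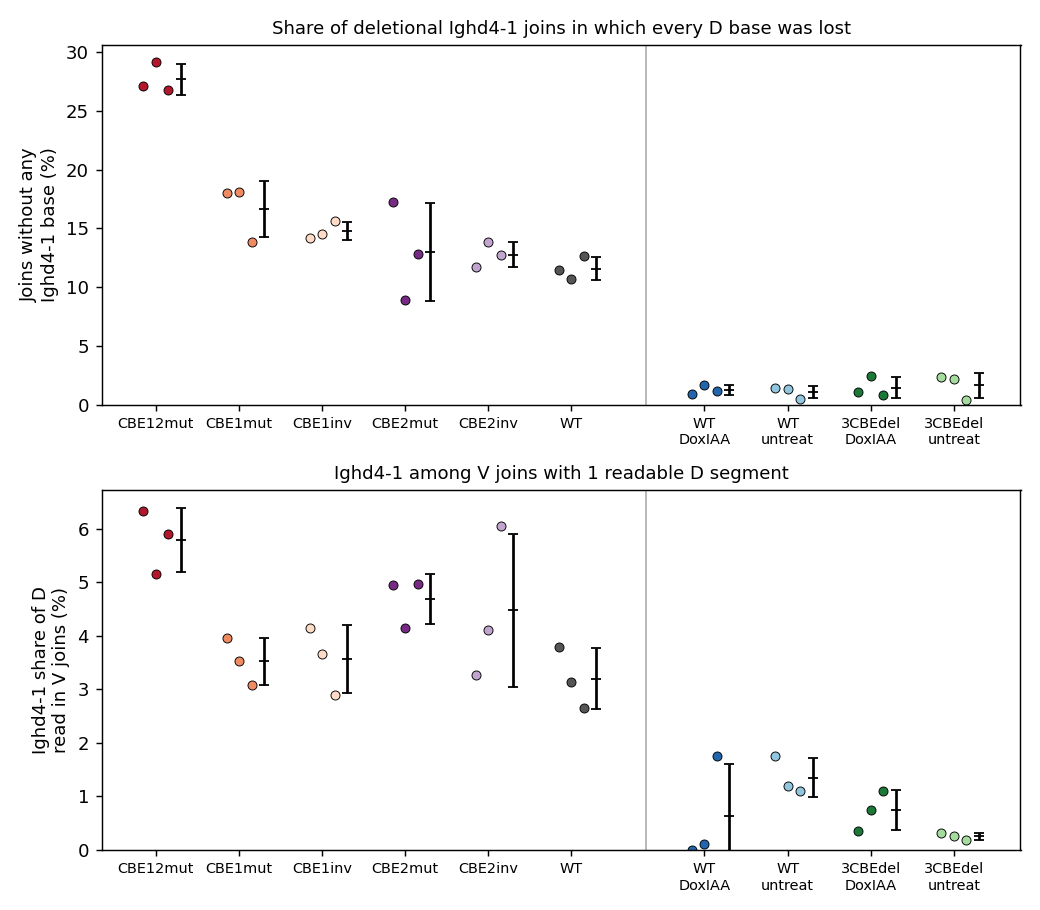
Ighd4-1 joins that kept no D base, as percent of deletional Ighd4-1 joins (top), and Ighd4-1 as percent of the D segments read inside V joins (bottom); dots are libraries, and the bar beside them is the mean with SD of 3. CBE12mut libraries (26.7% to 29.2%) were above all others in the top panel, and the WT_DoxIAA mean in the bottom panel (0.622%) rests on 1 library.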

How the data were processed

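HTGTS-V(D)J-seq libraries from 18 bone marrow and 12 v-Abl samples were used, in groups taken from the labels. The authors deposited, per the file headers, 1 line for each aligned read with the chromosome, position and strand of its junction. Reads were aligned with Bowtie2, per the submitters' processing notes, to mm9 for v-Abl cells and, per the labels, to mm9 with a 129SV Igh sequence for bone marrow. Versions and filters are not given in the sources used here. These position values hold no counts, so levels were obtained by counting lines, and repeated read sequences count several times.

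Junctions were assigned to V and D segments named through annotation or by BLAST 2.17.0, and a window of 100 bp defined Ighd4-1. Each cell system was fitted by voom in limma 3.58.1 under R 4.3.3, over segments that reached 10 junctions in 3 or more libraries. Library size was the number of junctions or of D joins, with Benjamini-Hochberg adjustment over all segments at 0.05. Counts of lines take a log2 scale there. Shares and ratios were tested with two-sided exact permutation tests in numpy 2.4.6. Over the 6 bone marrow genotypes, the variance between means was set against 100000 random permutations, counting variances at least as large. Exact intervals came from scipy 1.17.1. The fits were tested on simulated data. Ighd4-1, Ighd1-1, the next D and the 3 segments of highest correlation in each system were named by rule. The segment, lists and tests were chosen with earlier results of these data known. The alternatives were another scaling, limma trend, no filter, a narrower window, V plus D joins as library size, deletional joins alone, each read sequence once, longer matching runs, a replicate block, 1 run and each library left out. Genomic DNA junctions hold no expression, so the labelled cell type was not checked.

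The deviations of same-numbered libraries from their group means had a correlation over 0.1 in 17 of 45 bone marrow pairs and 7 of 18 v-Abl pairs. All 3 pairs passed that bar for CBE1inv with WT (0.117 to 0.319) and for CBE2mut with WT (0.106 to 0.230), where the numbers were taken to pair libraries, and in none of the other comparisons made. The labels do not say what a number marks. Bone marrow correlations ran from -0.320 to 0.319, and passing the bar does not show that libraries are paired.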

Additional observations from a re-analysis of the deposited data

How the results depend on the processing

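Under settings other than leaving out a library, 172 limma values of Ighd4-1 kept their direction and side of the threshold, 8 turned their sign, 8 no longer passed and 2 newly passed. Scaling by the median of ratios changed most of the rest. With treatment in v-Abl cells it did not centre on the median of all segments. Ighd4-1 lay below that median per D join and still kept a positive change. Per junction it gave 1.24 for CBE12mut, 0.43 for CBE1mut and 0.11 for CBE1inv against WT, -0.32 for CBE1inv against CBE1mut, -0.22 for CBE2inv against CBE2mut, -0.16 for 3CBEdel_DoxIAA against WT_DoxIAA and 0.14 for the difference of treatment effects. Per D join it gave 0.43 for CBE1mut, 0.11 for CBE1inv, 0.37 for CBE2mut and 0.16 for CBE2inv against WT, -0.32 for CBE1inv against CBE1mut, -0.22 for CBE2inv against CBE2mut, -0.16 for 3CBEdel_DoxIAA against WT_DoxIAA and 0.14 for the difference of treatment effects. With limma trend CBE1inv had 0.25 per D join and did not pass. With each read sequence counted once, 3CBEdel_untreat against WT_untreat passed at -0.31 per junction and -0.32 per D join.

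Each read sequence counted once also gave -0.546 points for the share of D joins in 3CBEdel_untreat and -4.43 points in 3CBEdel_DoxIAA against WT, and log2 ratios to Ighd1-1 that differed by 3.28 with treatment in WT and 2.82 in 3CBEdel. It gave -0.795 points inside V joins for 3CBEdel_untreat against WT_untreat, and -0.107 points for the full 3′ end in CBE2inv against WT. Runs of at least 9 bases gave 1.83 points inside V joins for CBE12mut against WT and -0.525 for 3CBEdel_untreat against WT_untreat. The cause was not tested.

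Counts of other D segments per D join moved more. For settings other than the main fit they are given, here and elsewhere, without the share over all segments. They therefore show only how far the counts depend on the setting. With median-of-ratios scaling the number called higher was 1 for each of CBE1mut, CBE1inv and CBE2mut and 0 for CBE2inv against WT, 0 in CBE1inv against CBE1mut, 0 with treatment in WT and in 3CBEdel, and 1 in 3CBEdel_DoxIAA against WT_DoxIAA. The number called lower was 0 in CBE1mut, 0 in CBE1inv and 2 in CBE2inv against WT, 9 with treatment in WT and 5 in 3CBEdel. With limma trend, 7 were higher in CBE12mut, 0 were higher and 1 lower in CBE1inv against WT, 0 were lower in CBE1inv against CBE1mut, 1 was lower in CBE2inv against CBE2mut and 1 was higher in 3CBEdel_DoxIAA against WT_DoxIAA. With each read sequence once, 3 were higher in CBE1inv against CBE1mut, 2 lower in 3CBEdel_untreat against WT_untreat and 1 higher in 3CBEdel_DoxIAA against WT_DoxIAA.

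The replicate block changed 0 of 24 limma calls of Ighd4-1. Only CBE1inv and CBE2mut against WT passed the bar for pairing, which does not show that their libraries are paired. The block moved the number of other D segments called higher to 2 in CBE1inv against WT, 2 in CBE1inv against CBE1mut and 1 in 3CBEdel_DoxIAA against WT_DoxIAA. Permutation within pairs cannot go below p = 0.25.

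Leaving out 1 library at a time gave -0.051 to 0.11 for CBE2mut per junction, below 0 without CBE2mut replicate 3, and 0.19 to 0.28 for CBE1inv per D join, not passing without CBE1inv replicate 2. For 3CBEdel_untreat against WT_untreat it gave -0.32 to -0.22 per junction and -0.33 to -0.22 per D join, passing without WT_untreat replicate 1. The number of other D segments called higher was 2 to 4 in CBE1inv (2 without CBE1inv replicate 2, WT replicate 2 or WT replicate 3), 1 to 3 in CBE2inv (1 without CBE2inv replicate 2) and 1 to 2 in CBE1inv against CBE1mut (2 without CBE1inv replicate 2). In 3CBEdel_untreat against WT_untreat 0 to 1 were higher and 0 to 1 lower, 1 each without 3CBEdel_untreat replicate 2. Depth limits mainly the inversional joins and the v-Abl joins inside V, where single libraries held 0 to 29 reads.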
